A study of Danio rerio with 9 samples.

Results

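Collagen is made in the endoplasmic reticulum, and the genes described here encode the enzymes and the chaperone that prepare its chains there. Lysyl hydroxylases (the plod genes) hydroxylate lysines that later carry sugars and crosslinks. Prolyl 4-hydroxylase, built of an alpha subunit (p4ha genes) and protein disulfide isomerase as the beta subunit (p4hb), makes the 4-hydroxyproline that keeps the triple helix stable at body temperature. Prolyl 3-hydroxylase (p3h1) modifies single prolines, and Hsp47 (serpinh1a and serpinh1b) holds the folded procollagen until it leaves for the Golgi. The hydroxylases use oxygen, iron, 2-oxoglutarate and ascorbate. Heart valves owe their stiffness and shape largely to fibrillar collagen laid down by the valve's interstitial cells.

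The set names 10 zebrafish (Danio rerio) genes, plod1a, plod2, plod3, p4ha1a, p4ha1b, p4ha2, p4hb, p3h1, serpinh1a and serpinh1b, and its members are the rows of the expression table whose symbol equals one of these names. This found 9 of the 10 among 21692 genes, and all 9 passed the filter on low values. The symbol plod3 stands on no row. The row ENSDARG00000076317, whose symbol is wu:fb72h05 and whose description reads Plod3 protein, is given beside the 9 as plod3 (by identifier). The set was chosen with results of the 3 comparisons below known, so the members' values in them are a description without p-values. The other gene lists were also chosen with earlier results of these data known. Their counts and adjusted p-values are therefore not an independent test. "Rose", "fell" or "passed" say of a member only that the fit across all genes put its adjusted p under 0.05.

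RNA came from atrioventricular valve tissue, laser-captured from heart cryosections, in 3 groups of 3 libraries: 48 h after ablation of valve cells, 21 d after ablation, and uninjured. Each library was made from 2 hearts. Ablation used metronidazole at 2.5 mM for 6 h. The labels used here give no strain, age, transgene or promoter, and leave unsaid whether uninjured fish had the drug bath and whether each library is a different pair of fish. The spread behind every p-value is thus that of these samples and may be technical. The values are read counts divided by a library size factor (normalised counts), not set per length of transcript. Levels are therefore compared between groups and not between genes.

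Column totals of the normalised values ran from 15383031 to 17979624 at 48 h and 19468771 to 19565088 at 21 d, against 18877857 to 21616553 in uninjured tissue. Every 48 h total was thus below all others, and the marker sums given next are shares of these totals. In bulk tissue such as this, fewer cells of a type and less RNA per cell cannot be told apart. Fibroblast and valve-interstitial markers summed to 0.736% to 0.839% of all values at 48 h and 0.422% to 0.465% at 21 d, against 0.599% to 0.637% in uninjured tissue. Most genes of this list moved the other way at 48 h, when 9 of 15 passed as lower and 2 as higher (median log2 fold change -1.25), and at 21 d 5 of 15 passed as lower. The 2 higher ones were the fibronectin genes fn1a and fn1b. The second had 97584 ± 9082 normalised counts at 48 h, against 44805 ± 8380 in uninjured tissue, while the proteoglycan gene dcn had 10440 ± 1430, against 37479 ± 1840 (SD, n = 3 each; these genes were chosen after their values were seen). Macrophage and leukocyte markers summed to 0.0793% to 0.125% at 48 h and 0.0446% to 0.0605% at 21 d, against 0.0208% to 0.0298% in uninjured tissue, and 12 of 17 passed as higher at 48 h and 5 of 17 at 21 d. At an unadjusted p under 0.05 in limma, 13 of the 17 were higher and 2 lower at 48 h, beside 4142 of all 17891 genes in either direction. Cell-cycle markers summed to 0.0446% to 0.0854% at 48 h and 0.0123% to 0.0169% at 21 d, against 0.00927% to 0.0137% in uninjured tissue, and 9 of 10 passed as higher at 48 h. Heart-muscle markers summed to 3.14% to 3.96% at 48 h and 4.63% to 5.53% at 21 d, against 4.67% to 5.59% in uninjured tissue, and 9 of 14 passed as lower at 48 h. Red-cell markers summed to 1.9% to 4.23%, 5.51% to 7.93% and 3.49% to 7.49% in the same groups, and endothelial markers to 0.225% to 0.379%, 0.199% to 0.209% and 0.176% to 0.239%. Of 15 endothelial markers, 3 passed as higher and 2 as lower at 48 h. None of the 9 red-cell markers passed at 48 h, when 3 were lower at an unadjusted p under 0.05 in limma. No marker of these 6 lists was at 0 in all libraries. Over all genes, 4.44% passed as higher and 6.33% as lower at 48 h, and 0.52% and 0.933% at 21 d. At 48 h most macrophage and cell-cycle markers were higher beside Hsp47, and most fibroblast and heart-muscle markers were lower beside plod1a and p4ha1b. At 21 d against uninjured tissue, 0 of 14 heart-muscle markers passed. At 21 d against 48 h, 9 of these passed as higher and 2 as lower, and 6 and 2 of 15 fibroblast markers. In that comparison 3 of 17 macrophage markers passed as higher and 7 as lower, and 0 and 6 of 10 cell-cycle markers. Over all genes it was 5.48% and 4.4%. The part of these markers in the results described next was not tested.

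At 48 h the 2 Hsp47 genes rose while a lysyl hydroxylase and a prolyl 4-hydroxylase alpha subunit fell. In the fit, serpinh1a and serpinh1b passed as higher than in uninjured tissue and plod1a and p4ha1b as lower, which is 2 and 2 of the 9 members. Over all 17891 genes tested, 4.44% passed as higher and 6.33% as lower. At an unadjusted p under 0.05 in limma, 4 members were higher and 2 lower at 48 h, beside 4142 of these genes in either direction. At 21 d none of the members passed as higher, where 0.52% of all genes did. The genes plod1a, p4ha1b and p4ha2 passed as lower, where 0.933% did. At an unadjusted p under 0.05 in limma, 5 members were lower and 0 higher. Of all 17891 genes, 2125 were under that threshold in either direction. At 21 d against 48 h, 5 members passed as lower and none as higher. At an unadjusted p under 0.05 in limma, 7 were lower and 0 higher, beside 3996 of the 17891 genes in either direction. Over all genes 4.4% passed as lower and 5.48% as higher in that comparison. The median log2 fold change of the 9 members was 0.43 at 48 h and -0.61 at 21 d against uninjured tissue, and -0.81 at 21 d against 48 h, beside medians over all genes of 0.01, 0.02 and 0.00. With equal column totals the split over all genes became 1347 higher and 652 lower at 48 h, against 794 and 1133, and 607 higher and 1281 lower at 21 d against 48 h, where it had been 980 and 788. These shares describe a list chosen on the same libraries and carry no weight beyond that.

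**Figure D1:**
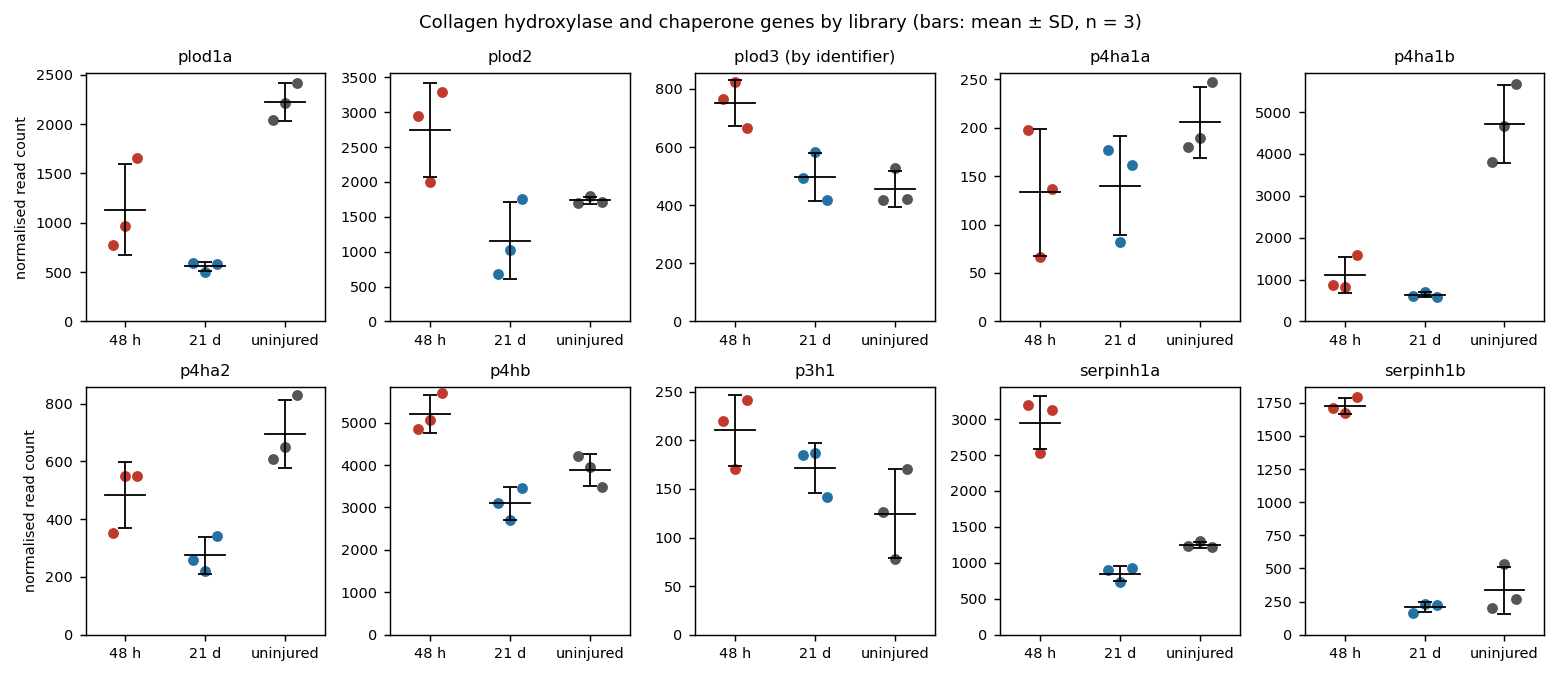
Normalised read count (y axis, from 0) of each of the 9 members and of plod3 (by identifier) in the 48 h, 21 d and uninjured libraries (x axis), with 1 point a library and bars for the mean ± SD (n = 3). The 48 h libraries of serpinh1b lie between 1676 and 1791, above the highest uninjured value of 533, and the p4ha1b libraries of both ablated groups lie below the lowest uninjured value of 3802.

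Hsp47 is a collagen-specific chaperone with a pair of genes in zebrafish. The values of serpinh1b (ENSDARG00000019949) were 1709, 1676 and 1791 normalised counts at 48 h and 165, 234 and 228 at 21 d, against 200, 533 and 273 in uninjured tissue. All 48 h libraries were above the other 6, and the 21 d and uninjured libraries overlapped. The rise at 48 h was 5.59-fold (log2 fold change 2.48, SE 0.34) and the fall at 21 d against 48 h was 8.32-fold (-3.06, SE 0.34). At 21 d against uninjured tissue the log2 fold change was -0.57 (SE 0.34), which did not pass. Its partner serpinh1a (ENSDARG00000075954) had 3200, 2524 and 3131 at 48 h and 897, 732 and 923 at 21 d, against 1232, 1303 and 1226 in uninjured tissue. Here no 2 groups overlapped, with 48 h highest and 21 d lowest. The rise at 48 h was 2.34-fold (log2 fold change 1.23, SE 0.21), and the fall at 21 d against 48 h was 3.47-fold (-1.79, SE 0.21). The 21 d difference from uninjured tissue, -0.57 (SE 0.21), did not pass.

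The balance between the Hsp47 genes shifted as well. There were 53.4, 66.4 and 57.2 normalised counts of serpinh1b for each 100 of serpinh1a at 48 h and 18.4, 32.0 and 24.7 at 21 d, against 16.2, 40.9 and 22.3 in uninjured tissue. The 48 h libraries lay above the rest, and the other groups overlapped. The ratio averaged 59.0 ± 6.68 at 48 h and 25.0 ± 6.79 at 21 d, against 26.5 ± 12.9 in uninjured tissue (SD, n = 3 each).

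The alpha subunits of prolyl 4-hydroxylase carry its catalytic site, and p4ha1b (ENSDARG00000071082) had the largest fold changes of the 3 against uninjured tissue. It had 872, 829 and 1593 normalised counts at 48 h and 618, 702 and 590 at 21 d, against 3802, 4677 and 5671 in uninjured tissue. Both ablated groups lay wholly below the uninjured libraries, and 48 h library 3 stood above the other libraries of its time. Against uninjured tissue p4ha1b fell 4.44-fold at 48 h (log2 fold change -2.15, SE 0.25) and 7.32-fold at 21 d (-2.87, SE 0.25). The 21 d and 48 h libraries did not overlap either. Their log2 fold change of -0.72 (SE 0.25) did not pass, but it did with equal column totals (-0.97), with library weights (-0.90) and without 48 h library 1 (-0.86) or 2 (-0.89).

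A second alpha subunit gene, p4ha2 (ENSDARG00000010085), had 353, 549 and 549 at 48 h and 259, 221 and 343 at 21 d, against 607, 648 and 828 in uninjured tissue. No 2 groups overlapped, with uninjured highest and 21 d lowest. Only the 21 d difference from uninjured tissue passed, at 2.55-fold (log2 fold change -1.35, SE 0.32). That call was lost without any one of the 3 uninjured libraries, 21 d library 1 or 21 d library 2 (-1.44 to -1.20). The 48 h difference from uninjured tissue was -0.54 and that of 21 d from 48 h was -0.81 (SE 0.32 each). The second of these passed with equal column totals (-1.06). The third gene, p4ha1a (ENSDARG00000033537), had 197, 66 and 137 at 48 h and 177, 82 and 161 at 21 d, against 180, 189 and 247 in uninjured tissue. One library of each ablated group was low, 48 h library 2 and 21 d library 2, and 48 h library 1 was within the uninjured range. The 21 d libraries all lay below the uninjured ones, the nearest at 177 against 180. For p4ha1a the 48 h group overlapped both others. The log2 fold changes of p4ha1a, -0.74 at 48 h, -0.61 at 21 d and 0.13 between 21 d and 48 h (SE 0.52 each), did not pass.

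Of the normalised counts of the 3 alpha subunit genes together, p4ha1b made up 61.3%, 57.4% and 69.9% at 48 h and 58.6%, 69.9% and 53.9% at 21 d, against 82.9%, 84.8% and 84.1% in uninjured tissue. Both ablated groups lay below the uninjured libraries and overlapped each other. These shares are not corrected for transcript length, so only their change between groups can be read.

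The beta subunit, p4hb (ENSDARG00000105116), is an abundant disulfide isomerase that also works outside prolyl 4-hydroxylase. It had 4851, 5071 and 5701 at 48 h and 3102, 2712 and 3470 at 21 d, against 4204, 3962 and 3473 in uninjured tissue. No 2 groups overlapped, although the highest 21 d library and the lowest uninjured library were 3 counts apart. The fall at 21 d against 48 h passed (log2 fold change -0.75, SE 0.18). The differences from uninjured tissue, 0.43 at 48 h and -0.33 at 21 d (SE 0.18 each), did not pass, but that at 48 h did with equal column totals (0.71) and with quantile normalization (0.76). There were 29.3, 28.5 and 40.0 counts of the alpha subunit genes for each 100 of p4hb at 48 h and 34.0, 37.1 and 31.5 at 21 d, against 109, 139 and 194 in uninjured tissue. The uninjured libraries were all above the ablated ones.

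Among the lysyl hydroxylase genes, plod1a fell at both times against uninjured tissue, and plod1a and plod2 were lower at 21 d than at 48 h. The product of plod1 hydroxylates lysines of the triple helix, while that of plod2 acts on the telopeptides at the chain ends and so sets the type of crosslink, as known in mammals. The values of plod1a (ENSDARG00000059746) were 772, 971 and 1655 at 48 h and 590, 506 and 585 at 21 d, against 2040, 2216 and 2420 in uninjured tissue. No 2 groups overlapped, and 48 h library 3, also the highest for p4ha1b, was nearest to the uninjured libraries. Against uninjured tissue plod1a fell 2.07-fold at 48 h (log2 fold change -1.05, SE 0.26) and 3.97-fold at 21 d (-1.99, SE 0.26), and it fell at 21 d against 48 h (-0.94, SE 0.26). The 48 h call was lost with equal column totals (-0.77) and without 48 h library 1 (-0.81). The call between 21 d and 48 h was lost without 48 h library 3 (-0.63) or 21 d library 2 (-0.87).

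Telopeptide lysyl hydroxylase, plod2 (ENSDARG00000011821), had 2953, 1995 and 3291 at 48 h and 679, 1028 and 1761 at 21 d, against 1698, 1793 and 1719 in uninjured tissue. The 48 h libraries were all above the other 6, and 21 d library 3 lay within the uninjured range while the other 21 d libraries lay below it. Its fall at 21 d against 48 h passed (log2 fold change -1.33, SE 0.28). The differences from uninjured tissue, 0.63 at 48 h and -0.70 at 21 d (SE 0.28 each), did not pass. For each 100 counts of plod2 there were 26.1, 48.7 and 50.3 of plod1a at 48 h and 86.9, 49.2 and 33.2 at 21 d, against 120.1, 124 and 141 in uninjured tissue. Each uninjured library had more plod1a than any ablated one on this scale.

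The product of PLOD3 also adds sugars to hydroxylysine in mammals. The row of plod3 (by identifier) had 764, 825 and 666 at 48 h and 494, 583 and 417 at 21 d, against 418, 527 and 421 in uninjured tissue. The 48 h libraries were above the other 6, which overlapped. No difference passed: the log2 fold change was 0.72 at 48 h and 0.12 at 21 d against uninjured tissue, and -0.60 at 21 d against 48 h (SE 0.28 each). The first passed with equal column totals.

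The prolyl 3-hydroxylase gene p3h1 (ENSDARG00000071212) had 220, 170 and 241 at 48 h and 185, 187 and 142 at 21 d, against 126, 78 and 170 in uninjured tissue. Its groups overlapped in every comparison. The log2 fold changes were 0.80 at 48 h and 0.51 at 21 d against uninjured tissue and -0.29 at 21 d against 48 h (SE 0.47 each), and none passed. At this SE, an interval of 2 SE either side of the last difference ran from -1.23 to 0.65.

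**Figure D2:**
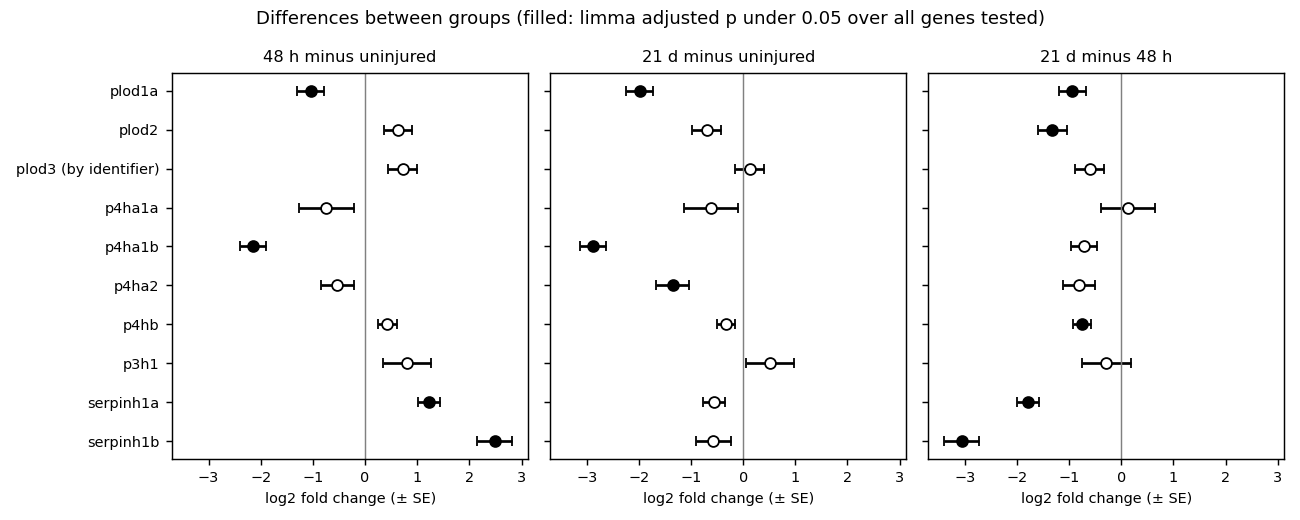
Log2 fold change ± SE (x axis) of each member and of plod3 (by identifier) (rows) at 48 h against uninjured tissue, at 21 d against uninjured tissue and at 21 d against 48 h. Filled points had a limma adjusted p under 0.05 over all genes tested. At 48 h the filled points of the Hsp47 genes lie to the right of 0, at 1.23 and 2.48, and those of plod1a and p4ha1b to the left, while at 21 d all filled points lie to the left.

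The substrate of these enzymes moved differently from Hsp47. Of 33 identifiers of collagen chain genes, 29 passed the filter, and at 48 h 18 of them fell against uninjured tissue and 0 rose (0 at an unadjusted p under 0.05 in limma), with a median log2 fold change of -1.45. Beside them, 9 of 15 fibroblast and valve-interstitial markers and 9 of 14 heart-muscle markers were lower at 48 h, and their part was not tested. Over all genes, 6.33% passed as lower and 4.44% as higher at 48 h. The chains of type I collagen, the main fibril of valves, fell: col1a1b averaged 16572 ± 2412 normalised counts at 48 h, against 46651 ± 4237 in uninjured tissue (SD, n = 3 each; log2 fold change -1.50, limma adjusted p = 7.44e-08). The others were col1a2 (-1.37, adjusted p = 7.46e-07) and col1a1a (-1.05, adjusted p = 4.48e-05). Beyond type I, the smallest adjusted p belonged to col16a1, a fibril-associated collagen (-2.90, adjusted p = 6.82e-09), and to col6a2, a chain of the beaded-filament collagen VI (-1.61, adjusted p = 4.17e-07). At 21 d, 13 of the 29 were higher than at 48 h, among them col1a1b (1.25, adjusted p = 1.39e-06) and col1a2 (0.98, adjusted p = 8.32e-05). In that comparison 5.48% of all genes passed as higher.

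Against uninjured tissue at 21 d, 2 of the 29 fell, col16a1 and col8a2, a network-forming chain. Their log2 fold changes were -1.25 (adjusted p = 0.00482) and -2.78 (adjusted p = 0.0373). The first call was lost without uninjured library 2 (-1.14), and the second without any 1 of the 21 d or uninjured libraries (-3.11 to -2.22) or with no robust step. The type I chains had -0.25 for col1a1b, -0.39 for col1a2 and -0.15 for col1a1a, none passing. At an unadjusted p under 0.05 in limma, 11 of the 29 were lower at 21 d and 0 higher. Of all 17891 genes, 2125 were under that unadjusted threshold in either direction. At the adjusted threshold, which the count of 2 above used, 0.933% of all genes passed as lower.

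Set per 1000 normalised counts of type I collagen (col1a1a, col1a1b and col1a2 together), the Hsp47 genes held 69.6, 76.3 and 91.5 at 48 h and 9.43, 8.23 and 8.61 at 21 d, against 11.5, 11.4 and 10.1 in uninjured tissue. No 2 groups overlapped. The mean was 79.2 ± 11.2 at 48 h and 8.76 ± 0.616 at 21 d, against 11.0 ± 0.808 in uninjured tissue (SD, n = 3 each). The beta subunit p4hb held 89.0 ± 18.8 at 48 h and 25.5 ± 2.25 at 21 d, against 27.3 ± 5.72, and plod2 held 46.4 ± 13.1 and 9.32 ± 3.6, against 12.1 ± 1.35. For both, the 48 h libraries were above all others, and the 21 d and uninjured libraries overlapped.

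The falling enzymes gave another picture on this scale. At 48 h, p4ha1b had 12.4, 15.1 and 29.6 per 1000 counts of type I collagen and at 21 d 5.49, 5.98 and 4.41, against 30.6, 29.1 and 38.2 in uninjured tissue. The 48 h and uninjured libraries overlapped through 48 h library 3, and the 21 d libraries were below all others. The gene plod1a had 11.0, 17.7 and 30.8 at 48 h and 5.24, 4.31 and 4.37 at 21 d, against 16.4, 13.8 and 16.3 in uninjured tissue. At 48 h its libraries spanned the uninjured range, while at 21 d they were all lower. Over all chain genes, the 9 members summed to 153.2 ± 37.3 per 1000 collagen counts at 48 h and 37.7 ± 2.43 at 21 d, against 64.0 ± 3.36 in uninjured tissue, with no overlap. These ratios combine the changes of the members with those of collagen and carry no test. The members summed to 15689 ± 2174 at 48 h and 7093 ± 971 at 21 d, against 15172 ± 989 in uninjured tissue (SD, n = 3 each). The collagen chains summed to 105111 ± 20903 and 187666 ± 13678, against 237474 ± 19314. The higher ratio over all chains at 48 h thus came with fewer collagen counts and a member sum that was little changed. Single members did change within that sum, in opposite directions: serpinh1a and serpinh1b passed as higher at 48 h, and plod1a and p4ha1b as lower. The sum is not set per length of transcript, so it is compared between groups only.

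**Figure D3:**
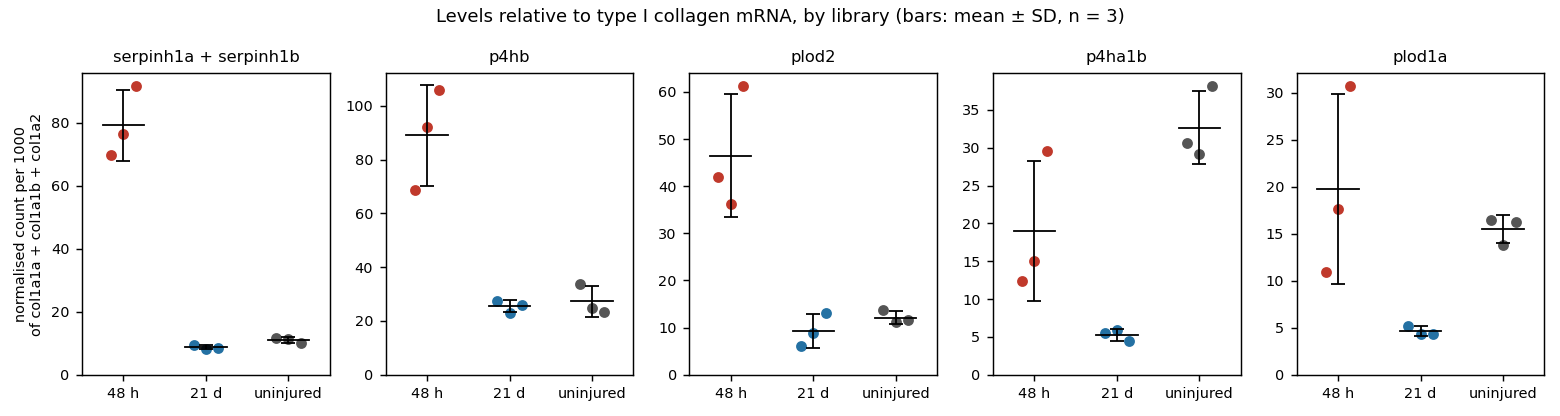
Normalised count of the Hsp47 genes together, p4hb, plod2, p4ha1b and plod1a per 1000 counts of type I collagen (y axis, from 0) in the 48 h, 21 d and uninjured libraries (x axis), with 1 point a library and bars for the mean ± SD (n = 3). Hsp47, p4hb and plod2 are higher in every 48 h library than in the rest, and p4ha1b and plod1a are lower in every 21 d library than in the rest.

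Other genes of collagen making were counted in lists named for their role. Like the collagen chains, these lists were chosen with earlier results of these data known, so their counts are a description. Beside these counts, 4.44% of all genes passed as higher and 6.33% as lower at 48 h against uninjured tissue. The shares were 0.52% and 0.933% at 21 d against uninjured tissue, and 5.48% and 4.4% at 21 d against 48 h. At an unadjusted p under 0.05 in limma, 4142, 2125 and 3996 of the 17891 genes differed in these comparisons, in the same order and in either direction. Partners of modification are the cofactors and relatives of the members, such as cyclophilin B and the collagen-bound immunophilins. Of 13 tested, 1 rose at 48 h, p4htm, a transmembrane prolyl 4-hydroxylase whose known substrate in mammals is hypoxia-inducible factor and not collagen (log2 fold change 1.71, limma adjusted p = 0.0462). It lost that call without uninjured library 1 or 3, any 48 h library or 21 d library 1 (1.42 to 1.88), and with quantile normalization, no filter, no robust step or only the compared groups in the fit. At 21 d against uninjured tissue 0 of the 13 passed, also at an unadjusted p under 0.05. Against 48 h, 2 fell at 21 d: fkbp7, an endoplasmic-reticulum immunophilin (-1.21, adjusted p = 0.00525), and ppib, cyclophilin B, which forms a complex with prolyl 3-hydroxylase (-0.73, adjusted p = 0.0446). The ppib call was lost without uninjured library 2 or 3, 48 h library 2 or 3, or 21 d library 1 or 2 (-0.79 to -0.49), and with no robust step or only the compared groups in the fit.

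Of 20 tested genes of procollagen export from the endoplasmic reticulum, 1 rose at 48 h, close to the 4.44% of all genes that rose. It was sec31a, a subunit of the outer COPII coat (log2 fold change 0.98, limma adjusted p = 0.0479). The call was lost without any 1 library other than 48 h library 2 (0.79 to 1.09), with a pseudocount of 0.5, with no robust step and with only the compared groups in the fit. At 21 d 0 of them passed against uninjured tissue, where 1 was higher and 1 lower at an unadjusted p under 0.05. Against 48 h 0 passed, and 3 were higher and 5 lower unadjusted, beside 3996 of all 17891 genes in either direction. Of 9 tested genes that cut or help to cut the propeptides after secretion, 2 fell at 48 h, when 6.33% of all genes fell. They were pcolcea, an enhancer of C-propeptide cleavage (-1.36, adjusted p = 8.34e-06), and adamts2, the N-propeptidase (-1.21, adjusted p = 0.00168). At 21 d pcolcea fell as well (-0.98, adjusted p = 0.0039), and so did the C-propeptidase bmp1a (-1.85, adjusted p = 0.0039).

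At 21 d against 48 h, bmp1a fell (-1.11, adjusted p = 0.0346) and so did pcolce2b, another enhancer (-1.06, adjusted p = 0.0393). The bmp1a call was lost without 48 h library 2 or 3 or 21 d library 1 or 2 (-1.12 to -0.91). That of pcolce2b was lost without uninjured library 1 or 3, 48 h library 2 or 3, or 21 d library 1 (-1.06 to -0.72), and with only the compared groups in the fit.

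General folding genes of the endoplasmic reticulum, which serve all secreted proteins, moved like Hsp47 in direction. At 48 h 10 of 26 tested rose against uninjured tissue and 0 fell (0 at an unadjusted p under 0.05), with a median log2 fold change of 0.84. Over all genes, 4.44% rose at 48 h, and 4.4% were lower at 21 d than at 48 h. The Hsp70 chaperone hspa5 (BiP) averaged 8708 ± 241.5 normalised counts at 48 h, against 3122 ± 640.0 in uninjured tissue (SD, n = 3 each; log2 fold change 1.50, limma adjusted p = 2.74e-06). The calreticulin gene calr3a (1.30, adjusted p = 5.80e-05), the Hsp90 chaperone hsp90b1 (1.11, adjusted p = 2.55e-04) and the disulfide isomerase pdia3 (1.04, adjusted p = 4.64e-04) rose too. At 21 d 0 of the 26 passed against uninjured tissue, where 1 was higher and 1 lower at an unadjusted p under 0.05. Against 48 h, 13 were lower at 21 d and 0 higher (1 at an unadjusted p under 0.05), among them hspa5 (-1.38), pdia3 (-1.30), hsp90b1 (-1.22) and canx, the lectin chaperone calnexin (-0.93). Most macrophage and cell-cycle markers were higher at 48 h beside these genes too, and their part was not tested.

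The collagen hydroxylases share their cofactors with the hydroxylases that sense oxygen, and several collagen hydroxylase genes are targets of hypoxia-inducible factor in mammals. Of 24 tested genes of oxygen sensing and the hypoxia response, 14 fell at 48 h and 1 rose, with a median log2 fold change of -1.19. At an unadjusted p under 0.05 in limma, 16 were lower and 2 higher, beside 4142 of all 17891 genes in either direction. The list holds hydroxylases that act on hypoxia-inducible factor beside its subunits and targets, so its counts give no direction of a hypoxia response. Among those that fell were hif1al, which encodes a hypoxia-inducible factor alpha-like subunit (-2.47, limma adjusted p = 2.27e-09), and egln3, a prolyl hydroxylase of that factor and itself a hypoxia target (-3.21, adjusted p = 1.71e-08). The hypoxia-induced ankrd37 (-3.47, adjusted p = 1.39e-06) and the growth factor gene vegfab (-1.74, adjusted p = 7.12e-06) fell as well. The gene that rose was the adrenomedullin gene admb, at 755 ± 595 at 48 h, against 6.67 ± 10.7 in uninjured tissue (SD, n = 3 each; adjusted p = 0.007), and its call was lost without 48 h library 2 or 3. Over all genes, 6.33% fell and 4.44% rose at 48 h. At that time 9 of 15 fibroblast and valve-interstitial markers and 9 of 14 heart-muscle markers were lower too. A link between the hypoxia genes and the members was not tested.

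At 21 d against uninjured tissue, 6 of the 24 were lower and 1 higher, beside 0.933% and 0.52% of all genes. The values of egln3 (-3.83, adjusted p = 1.21e-08), vegfab (-1.46, adjusted p = 6.49e-04) and ankrd37 (-2.32, adjusted p = 0.00203) were among the lower ones, as at 48 h. The gene that was higher was hif1al2, a second hypoxia-inducible factor alpha-like gene (1.02, adjusted p = 0.00482). Against 48 h, 5 were higher at 21 d and 2 lower, beside 5.48% and 4.4% of all genes. The higher ones were hif1al (2.27), hif1al2 (1.84), epas1b and epas1a, which encode the HIF-2 alpha subunit (1.07 and 1.21), and the pyruvate dehydrogenase kinase pdk1 (1.52), whose call was lost without 48 h library 3 or 21 d library 1 or 3 (1.25 to 1.47). The lower ones were ndrg1a, a stress-induced gene (-2.15), and admb, at 1.33 ± 2.31 at 21 d, against 755 ± 595 at 48 h. The mean of ndrg1a was 1141 ± 347 at 48 h, against 567 ± 65.0 in uninjured tissue (SD, n = 3 each), a difference that did not pass.

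Of 16 tested genes that supply or use ascorbate and 2-oxoglutarate, 3 fell at 48 h and 1 rose, beside 6.33% and 4.44% of all genes. The list includes oxoglutarate dehydrogenase, which uses up 2-oxoglutarate, so its counts give no direction of supply. The aminotransferases got2a (log2 fold change -0.60, limma adjusted p = 0.0154) and got1 (-0.62, adjusted p = 0.018) and the oxoglutarate dehydrogenase gene ogdhb (-0.89, adjusted p = 0.0288) fell, and the glutamate dehydrogenase gene glud1a rose (0.79, adjusted p = 0.0182). With equal column totals or quantile normalization got2a, got1 and ogdhb did not pass, and each of the 4 calls was lost without 1 of several libraries: uninjured 1 or 2 for got2a, these or 48 h library 3 for got1, uninjured 2 or 3 or 48 h library 1 or 3 for glud1a, and those or 48 h library 2 for ogdhb. At 21 d against uninjured tissue 1 of the 16 fell, the sugar transporter gene slc2a3b (-1.40, adjusted p = 0.0283), a call lost without uninjured library 1 or 3 or any 21 d library (-1.48 to -1.26).

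Against 48 h, got2a (0.76), got1 (0.71), ogdhb (1.22) and the isocitrate dehydrogenase subunit idh3b (0.93) were higher at 21 d, and glud1a (-0.90) and slc2a3b (-1.22) were lower. Without 21 d library 1, glud1a (-0.76) and got1 (0.64) did not pass, and got1 and got2a did not with quantile normalization, nor got1 and idh3b with equal column totals. The idh3b call was lost without 48 h library 3 or 21 d library 3 (0.77 to 0.82), and that of slc2a3b without 48 h library 2 or 3 or 21 d library 3 (-1.17 to -1.10).

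**Figure D4:**
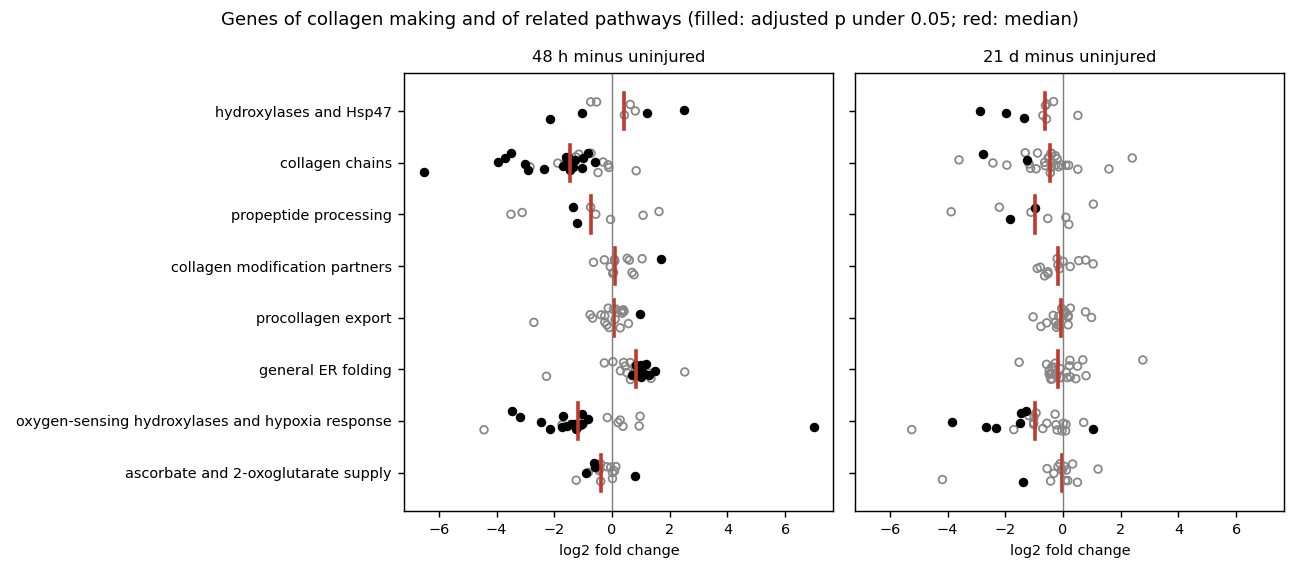
Log2 fold change (x axis) of each tested gene of the members and the 7 other lists (rows), at 48 h and at 21 d against uninjured tissue, with filled points for a limma adjusted p under 0.05 and a red line at each median. At 48 h the collagen chains center on -1.45 and the general folding genes on 0.84, while at 21 d these medians are -0.44 and -0.17.

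The genes whose levels tracked serpinh1b, plod2 and p4hb most closely were found by the Pearson r of log2(value + 1) over the 9 libraries. This is a description only, since the libraries fall into groups. The other members were not searched in this way. For serpinh1b they were cacybp (r = 0.979), il34 (0.976) and si:dkey-219e21.2 (0.974). For plod2 they were HHEX (0.961), kidins220a (0.95) and rbm47 (0.948), and for p4hb cd276 (0.976), asap3 (0.97) and lifrb (0.968). The r of si:dkey-219e21.2 and of HHEX rested partly on values at or near 0. At 21 d the first had 0, 0 and 0 normalised counts and the second 0, 1 and 18. In uninjured tissue the first had 0, 14 and 0. The gene il34 shows the shape shared by the serpinh1b group, with 1091, 899 and 837 at 48 h and 83, 138 and 211 at 21 d, against 107, 243 and 187 in uninjured tissue.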

How the data were processed

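Values in the deposited table are a normalised signal: read counts that the authors divided by a size factor per library and rounded, for 21692 genes. Per the submitters' processing notes, FastQC 0.11.8, Trimmomatic 0.33, STAR 2.6.0c, featureCounts 1.6.0 and DESeq2 1.18.1 were used with danRer11 (GRCz11). Median-of-ratios factors recomputed from the table differed by 0.109% at most over 13019 genes above 0 in all libraries. Because the values are not raw counts, no count model was fitted, although the plan had assumed counts. Genes with at least 10 in at least 3 libraries (17891) were log2-transformed after adding 1. All 9 libraries entered 1 limma 3.58.1 model (R 4.3.3) with a trend and robust variance, two-sided, with Benjamini-Hochberg adjustment over all tested genes at 0.05. The model was tested on simulated data. Figures and tables used Python 3.11.15, numpy 2.4.6, pandas 2.3.3 and matplotlib 3.10.9. The members and lists were chosen with earlier results of these data known. Named genes are the members, type I collagen chains, up to 4 genes of each list by smallest adjusted p and all genes behind counts of 5 or fewer; among these, epas1a, pdk1, admb, idh3b and slc2a3b were added after their values were seen, where a count needed them. Alternatives changed the scaling, the pseudocount, the low-value filter, the variance step or the groups in the fit, weighted libraries, added a replicate block, or left out each library. Counting error was not modelled, and the number of libraries limits precision. No genome or sequence was used here.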

Additional observations from a re-analysis of the deposited data

Results flagged for a closer look

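Between the 2 comparisons with uninjured tissue, which share the uninjured libraries, the 31 genes given here had log2 fold changes at 21 d and 48 h that differed in the fit (21 d minus 48 h). Over all genes, 980 were higher and 788 lower in this comparison. The genes below came from the members and the rule for named genes, and only those with an adjusted p under 0.05 in it were kept. That all of them differed was therefore set by the choice. Of the members, for which the difference is a description, these were plod1a (-0.94), plod2 (-1.33), p4hb (-0.75), serpinh1a (-1.79) and serpinh1b (-3.06). Among the genes of modification and propeptide processing were fkbp7 (-1.21), ppib (-0.73), bmp1a (-1.11) and pcolce2b (-1.06). The collagen chains had positive differences: col1a1b (1.25), col16a1 (1.65), col6a2 (1.21), col1a2 (0.98) and col1a1a (0.89). The folding genes had negative ones: hspa5 (-1.38), pdia3 (-1.30), hsp90b1 (-1.22) and canx (-0.93). The oxygen-sensing genes were hif1al (2.27), hif1al2 (1.84), epas1b (1.07), epas1a (1.21), pdk1 (1.52), ndrg1a (-2.15) and admb (-8.00), the last resting on values of 1.33 ± 2.31 at 21 d. The genes of ascorbate and 2-oxoglutarate supply or use were got2a (0.76), ogdhb (1.22), got1 (0.71), idh3b (0.93), glud1a (-0.90) and slc2a3b (-1.22).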

How the results depend on the processing

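Across 18 alternatives, 1510 of the gene values kept their direction and side of the threshold, 98 lost the call, 8 gained it and 4 reversed. The 4 were p4ha1a at 21 d against 48 h (0.13), which became -0.12 with equal column totals and ran from -0.30 to 0.48 with a library left out, below 0 without 48 h library 2 (-0.30) or 21 d library 1 (-0.08) or 3 (-0.01). Equal column totals moved the median over all genes to 0.28 at 48 h. Members called lower at 48 h numbered 1 with equal column totals against 2, and 1 to 2 with a library left out. Members called higher at 48 h numbered 3 with equal column totals or quantile normalization against 2. Those called lower at 21 d numbered 2 to 3 with a library left out against 3. Those called lower at 21 d against 48 h numbered 7 with equal column totals, 6 with library weights and 4 to 6 with a library left out, against 5. In the other pathway lists (137 genes tested), 24 were called higher at 48 h with equal column totals against 14, and 8 to 14 with a library left out, 8 without 48 h library 3. Those called lower at 48 h were 23 with equal column totals against 37, and those lower at 21 d were 7 to 13 with a library left out against 11, with 7 without uninjured library 2 or 3 or 21 d library 3. Members per 1000 counts of fibrillar collagen alone averaged 192.3 at 48 h and 47.28 at 21 d, against 83.13 in uninjured tissue. The causes were not tested. Over all genes, higher and lower calls were 1347 and 652 at 48 h with equal column totals against 794 and 1133, and 607 and 1281 at 21 d against 48 h, where the main numbers were 980 and 788. With a replicate block, the calls were 760 and 1158 at 48 h and 78 and 161 at 21 d against uninjured tissue, and 961 and 749 at 21 d against 48 h, and each member kept its call. Same-numbered libraries did not deviate together, so the numbers were not taken to pair samples. Counting plod3 (by identifier) as a member changed none of the member counts of the main fit. With equal column totals it passed as higher at 48 h (1.005) and would add to that count. How depth limits weakly expressed members was not tested.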
